A study of Mus musculus with 12 samples.

Results

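CC chemokine transcripts were measured in the left ventricle (LV) of adult mouse offspring that differed in Hif1a genotype and in exposure to maternal diabetes. The 8 genes described are Ccl6, Ccl9, Ccl2, Ccl7, Ccl8, Ccl11, Ccl12 and Ccl24, found by symbol among the 46983 genes of the count files. All 8 passed the filter on low counts, which kept 14706 genes for testing. They were chosen by gene family and by name, with their differences in read counts between these groups already known, and Ccl2, Ccl6, Ccl7 and Ccl9 are among the genes that the study itself lists as changed. Their differences between groups are therefore given as a description of these samples.

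FVB females made diabetic with streptozotocin, a toxin for insulin-producing cells, were mated with males heterozygous for the Hif1a tm1jhu null allele on the FVB background, and non-diabetic FVB females were mated with such males as controls. The null allele is carried in every cell of the heterozygote, not in a chosen cell type, and the offspring themselves received no streptozotocin. LV RNA of 12-week-old offspring was sequenced from the 3′ end of transcripts. Each of the 4 groups held 3 samples from several litters: Wt non-diabetic (Wt offspring of non-diabetic pregnancy, animals 25, 42 and 89), Wt diabetic (Wt offspring of diabetic pregnancy, animals 50, 7 and 80), Hif1a+/- non-diabetic (animals 14, 32 and 44) and Hif1a+/- diabetic (animals 66, 72 and 77). In LV tissue, more cells of a type and more RNA per cell cannot be told apart.

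The samples held 16132442 to 39812939 counted reads. The sample labels give the offspring as female and the study's text as male. Xist, the RNA of the silenced X chromosome, was at 0.23 to 5.99 CPM (counts scaled to the size of the library) in 11 samples and at 158 CPM in Hif1a+/- diabetic 72. The summed level of 4 Y-linked genes was 195 to 250 CPM in those 11 samples and 1.14 CPM in that sample. Hif1a+/- diabetic 72 thus differed in sex from the rest. Most of the members' fold changes that rest on it, the genes most like them and the levels of receptors and markers are therefore also given without it. Fold changes of Ccl11 and Ccl24 are not, and against Wt non-diabetic hearts only those of Ccl6 and Ccl9 are. Genes other than the members were tested with all 12 samples only. Markers of cardiomyocytes summed to 69100 to 79200 CPM over the 12 samples, with Myh6, the adult cardiac myosin heavy chain, the highest. Hif1a itself was at 61.5 ± 9.0 CPM (SD, n = 3) in Wt non-diabetic, 55.3 ± 6.4 in Wt diabetic, 85.7 ± 6.0 in Hif1a+/- non-diabetic and 72.3 ± 8.5 in Hif1a+/- diabetic hearts. The transcript was thus not lower in the heterozygotes. Its log2 fold change against Wt was 0.48 (SE 0.12) in non-diabetic and 0.39 (SE 0.12) in diabetic pregnancy. Neither reached an adjusted p under 0.1 in edgeR or DESeq2. Reads from the 3′ end do not test the disrupted part of the allele, so this level checks no genotype label.

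CC chemokines are small secreted proteins that draw leukocytes along a gradient by way of G-protein-coupled receptors, most of them named Ccr. Ccl2, Ccl7 and Ccl12 act on Ccr2 of monocytes, and mouse Ccl8 acts on Ccr8. Ccl11 and Ccl24, the eotaxins, act on Ccr3 of eosinophils, and Ccl6 and Ccl9 are made by myeloid cells of rodents and act on Ccr1. In the heart, monocyte-attracting chemokines are best known for the recruitment of monocytes after injury, and resident macrophages are one of their sources.

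Of the 8 genes, 7 lie in blocks on chromosome 11 (GRCm38). Ccl2, Ccl7, Ccl11, Ccl12 and Ccl8 follow each other on the plus strand in 81.2 kb, chr11:82035571-82116799. Ccl9 and Ccl6 are neighbours on the minus strand in 20.2 kb, chr11:83572919-83593087. Ccl24 stands alone at chr5:135569937-135573049 on the minus strand. All are protein-coding genes. Coding sequences of 291 to 444 bases were 48.0% to 68.4% identical between members, with 65.1% for Ccl6 and Ccl9 and 68.4% for Ccl8 and Ccl12. The longest run of bases shared by transcripts of 2 members was 25 bases, against sequenced reads of 75 bases. The annotated genes Gm17268 and E230016K23Rik overlap Ccl2 and Ccl6 but share 0 exon bases with them, and were at 0 counts and at 0 to 12 counts.

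Promoter sequence was at hand from RefSeq (GRCm38.p6) for Ccl6, Ccl9, Ccl8 and Ccl12, while Ccl2, Ccl7, Ccl11 and Ccl24 had no entry. These 4 are shown because only they had an entry, and because they hold both genes of the pair with the most alike levels across the samples (Ccl6 and Ccl9) and of the pair with the most alike coding sequence (Ccl8 and Ccl12). Each run below is the 250 bases before the gene's start, 5′ to 3′ on the gene's strand, taken from chr11:83593088-83593337 (minus), chr11:83578637-83578886 (minus), chr11:82114935-82115184 (plus) and chr11:82101595-82101844 (plus) in this order. Capitals mark the stretch that aligned locally with the other gene of the pair, Ccl6 with Ccl9 and Ccl8 with Ccl12.
Ccl6: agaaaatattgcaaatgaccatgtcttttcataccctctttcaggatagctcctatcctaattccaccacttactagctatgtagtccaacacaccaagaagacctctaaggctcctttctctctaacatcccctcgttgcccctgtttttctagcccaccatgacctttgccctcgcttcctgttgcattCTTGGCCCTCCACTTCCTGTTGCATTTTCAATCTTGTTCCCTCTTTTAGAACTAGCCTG
Ccl9: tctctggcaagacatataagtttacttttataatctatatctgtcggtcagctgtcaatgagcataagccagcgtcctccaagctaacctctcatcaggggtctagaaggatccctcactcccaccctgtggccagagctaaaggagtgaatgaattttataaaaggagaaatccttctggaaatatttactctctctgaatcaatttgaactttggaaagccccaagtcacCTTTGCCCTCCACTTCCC
Ccl8: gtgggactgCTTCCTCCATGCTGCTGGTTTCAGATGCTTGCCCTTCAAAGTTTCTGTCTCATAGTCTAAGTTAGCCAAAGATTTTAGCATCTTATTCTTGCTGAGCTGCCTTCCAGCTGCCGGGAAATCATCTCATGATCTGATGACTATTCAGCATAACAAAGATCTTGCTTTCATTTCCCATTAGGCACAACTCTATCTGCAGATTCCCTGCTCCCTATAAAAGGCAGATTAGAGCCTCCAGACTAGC
Ccl12: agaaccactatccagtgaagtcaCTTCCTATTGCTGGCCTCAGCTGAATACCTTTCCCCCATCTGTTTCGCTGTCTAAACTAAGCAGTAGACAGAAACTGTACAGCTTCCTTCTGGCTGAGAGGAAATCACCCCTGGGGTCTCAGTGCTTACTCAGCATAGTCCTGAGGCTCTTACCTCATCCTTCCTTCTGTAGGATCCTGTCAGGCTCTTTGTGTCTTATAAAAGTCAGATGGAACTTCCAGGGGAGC

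Over windows that also took the 50 bases after the start, Ccl6 and Ccl9 aligned in 74 columns at 78.4% identity. In Ccl6 the stretch ran from 59 bases before the start to 15 after it, and in Ccl9 from 18 before to 49 after. Most of the Ccl9 stretch thus lay after its start, outside the printed bases. Ccl8 and Ccl12 aligned in 296 columns at 59.5% identity, nearly the whole window. The local alignment scores of these pairs were 83 and 85, and those of the 4 crossed pairs were 20 to 23. Short motifs were searched in the 250 bases of these 4 genes and of all 32851 RefSeq promoters. TATAAA on the gene's strand was found before Ccl9, Ccl8 and Ccl12 and in 7.59% of all promoters. ACGTG and GCGTG, the core letters of hypoxia response elements, were searched on both strands and found in 0 of the 4, with 16.6% and 28.2% of all promoters holding them. Both motifs end in CGTG, so they differ in the first base alone. Ccl9 also held TGANTCA, the letters of an AP-1 site (6.75% of all promoters), and an NF-kB motif (7.25%), and Ccl8 held GAGGAAG (10.6%), while TTGCNNAA was found in 0 of the 4 (9.56%). These are matches of letters in these windows and nothing more.

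Ccl6 was the most abundant of the 8 transcripts, with a mean of 21.6 CPM over the 12 samples, followed by Ccl9 with 12.0 CPM. Ccl11, Ccl2, Ccl24 and Ccl7 lay between 2.35 and 3.47 CPM, and Ccl12 and Ccl8 at 1.83 and 1.54 CPM. Divided by the summed exon length of each gene, Ccl6 stayed highest at 12.0 CPM per kb, Ccl9 had 3.94 and Ccl24 was lowest at 1.95 CPM per kb. Reads from the 3′ end do not grow in number with length, so both scales are given. In the samples, counts were 158 to 2344 for Ccl6 and 71 to 1267 for Ccl9, but 7 to 148 for Ccl8 and 8 to 161 for Ccl12, so the last pair carries the largest counting error.

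In Hif1a+/- diabetic hearts Ccl6 was at 60.2, 26.5 and 37.4 CPM (animals 66, 72 and 77). In Hif1a+/- non-diabetic hearts it was at 10.9, 8.9 and 9.65 CPM, so the lowest diabetic sample lay well above the highest non-diabetic one. In Wt non-diabetic hearts it was at 19.4, 7.82 and 11.6 CPM, and in Wt diabetic hearts at 14.3, 31.4 and 20.8 CPM, with animal 7 highest. The order of the group means was Hif1a+/- diabetic (41.4 ± 17.2 CPM, SD, n = 3), Wt diabetic (22.2 ± 8.65), Wt non-diabetic (12.9 ± 5.89) and Hif1a+/- non-diabetic (9.82 ± 1.01), and each group's range overlapped that of the next in this order. The samples of every other group, Wt non-diabetic included, thus spread far more than those of Hif1a+/- non-diabetic hearts.

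Ccl9, the neighbour of Ccl6, was highest in the same 4 animals (66, 7, 77 and 72). It was at 32.5, 13.8 and 19.4 CPM in Hif1a+/- diabetic hearts (animals 66, 72 and 77) and at 7.05, 4.0 and 7.14 CPM in Hif1a+/- non-diabetic hearts. In Wt diabetic hearts it was at 8.4, 19.7 and 10.7 CPM (animals 50, 7 and 80), and in Wt non-diabetic hearts at 9.96, 5.37 and 6.13 CPM. Animal 7 was again the highest of the Wt samples, and animal 66 the highest of all. The ratio of Ccl6 to Ccl9 stayed between 1.35 and 2.23 in the 12 samples, and between 1.85 and 1.93 in Hif1a+/- diabetic hearts.

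Among the ligands of monocyte receptors, Ccl2 was at 4.19, 3.7 and 6.05 CPM in Hif1a+/- diabetic hearts (animals 66, 72 and 77). In Hif1a+/- non-diabetic hearts it was at 2.22, 2.37 and 2.66 CPM, below every sample of the diabetic group. Wt non-diabetic hearts had 3.49, 4.14 and 2.74 CPM and Wt diabetic hearts 3.37, 1.67 and 2.11 CPM, so in Wt the mean after diabetic pregnancy was the lower one. The groups of Wt overlapped.

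Ccl7, which acts on the same receptor, was at 2.49, 2.6 and 6.89 CPM in Hif1a+/- diabetic hearts and at 1.32, 1.35 and 1.71 CPM in Hif1a+/- non-diabetic hearts, without overlap. Its mean in Hif1a+/- diabetic hearts, 3.99 ± 2.51 CPM, was carried by animal 77. In Wt hearts Ccl7 lay between 0.82 and 3.05 CPM, and animal 7, high in Ccl6 and Ccl9, was the lowest of all 12.

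Ccl12 and Ccl8 followed animal 77 even more. Ccl12, a rodent monocyte attractant, was at 1.26, 3.08 and 7.11 CPM in Hif1a+/- diabetic hearts and at 1.09, 0.45 and 0.65 CPM in Hif1a+/- non-diabetic hearts. The gap between the groups was small, from 1.09 to 1.26 CPM. Ccl8 was at 1.46, 0.88 and 6.54 CPM against 0.47, 1.3 and 0.8 CPM in these groups, which overlapped. In Wt diabetic hearts animal 80 was high in Ccl12, at 3.54 CPM, while animal 7 was lowest in both, at 0.37 CPM of Ccl12 and 0.24 CPM of Ccl8.

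The eotaxins showed no such pattern. Ccl11 was at 3.43 ± 0.32 CPM in Wt non-diabetic, 3.97 ± 2.1 in Wt diabetic, 3.12 ± 0.57 in Hif1a+/- non-diabetic and 3.33 ± 0.94 in Hif1a+/- diabetic hearts, with the single highest value, 6.28 CPM, in Wt diabetic 80. Ccl24 had its highest and lowest values, 3.66 and 1.62 CPM, in Wt samples. The ranges of all 4 groups overlapped for both genes.

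**Figure D1:**
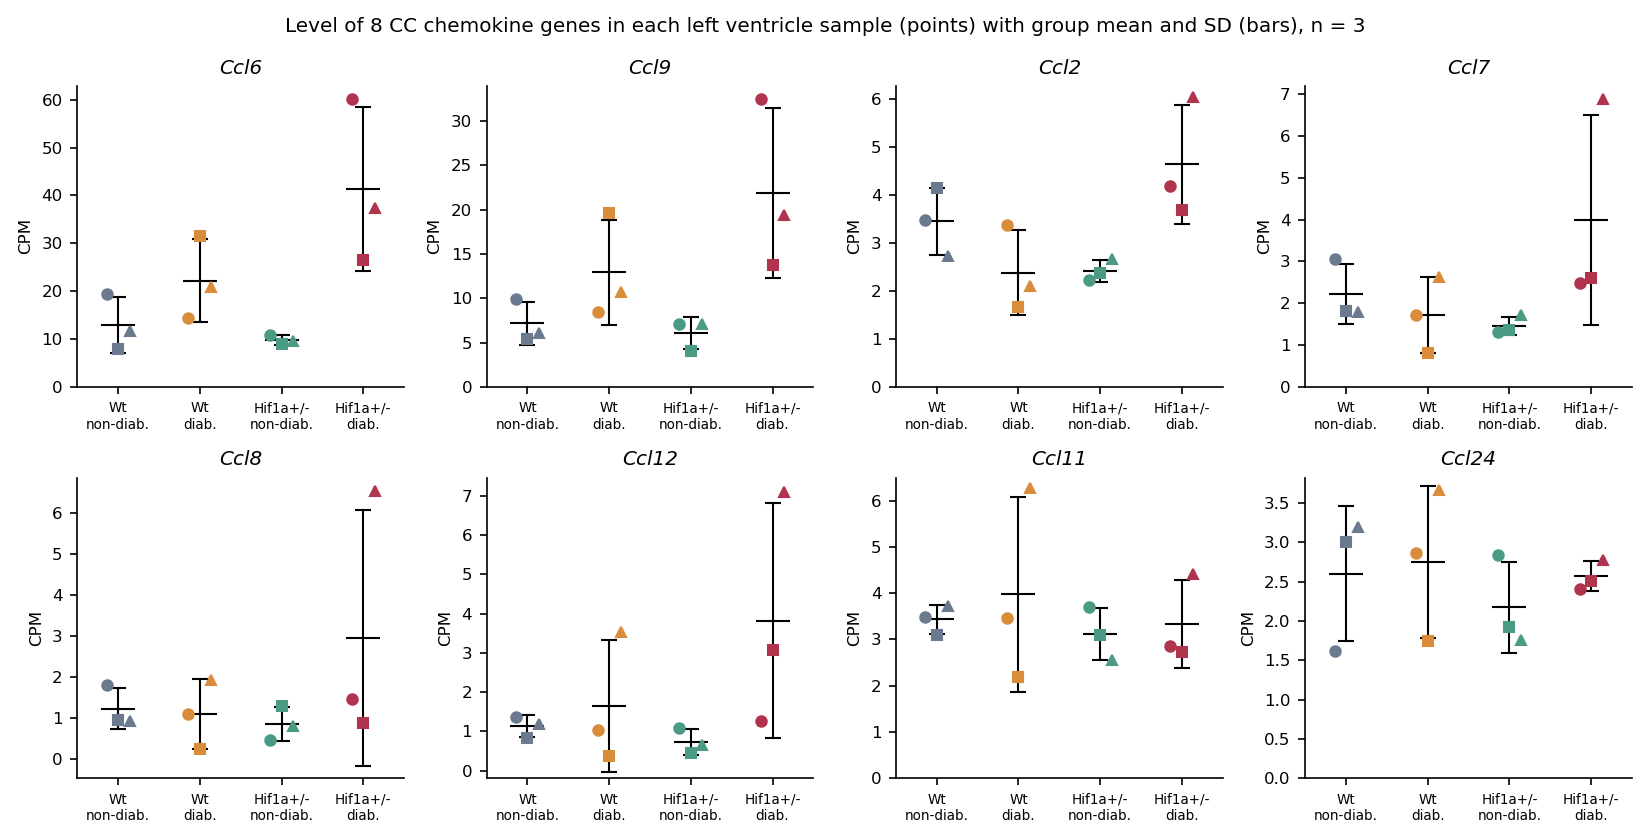
CPM of each gene (vertical axes, linear, with a different range for each gene) in the 4 groups, where points are samples and bars the mean and SD of 3; circles are animals 25, 50, 14 and 66, squares 42, 7, 32 and 72, and triangles 89, 80, 44 and 77 in the order of the groups. Ccl6 and Ccl9 are highest in animal 66, while Ccl2, Ccl7, Ccl8 and Ccl12 are highest in animal 77.

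The comparison of diabetic with non-diabetic pregnancy in Hif1a+/- hearts asks how maternal diabetes acts on offspring that lack 1 Hif1a allele. All 8 log2 fold changes were above 0, with a median of 1.62 against -0.006 over all tested genes. Ccl6 was 4.21-fold higher, a log2 fold change of 2.08 (SE 0.36), and Ccl9 3.61-fold higher, at 1.85 (SE 0.37). The log2 fold change was 2.30 (SE 0.73) for Ccl12, 1.80 (SE 0.75) for Ccl8, 1.43 (SE 0.45) for Ccl7 and 0.94 (SE 0.27) for Ccl2. Ccl24 and Ccl11 were at 0.22 (SE 0.30) and 0.08 (SE 0.32).

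In edgeR's quasi-likelihood test 0 of the 8 genes reached an adjusted p under 0.1, and neither did any of the 14706 tested (0.0% called, 1764 with an unadjusted p under 0.05). The adjusted p in edgeR was 0.124 for Ccl6 and 0.178 for Ccl9, and 0.275 to 0.937 for the others. DESeq2 on the same counts called 1.44% of 13951 genes (1.03% as higher), and the 4 members called were Ccl6 (adjusted p = 0.00155), Ccl9 (0.0123), Ccl2 (0.0886) and Ccl7 (0.0901). The samples of the groups did not overlap for 5 members, Ccl6, Ccl9, Ccl2, Ccl7 and Ccl12, all higher, and 11.2% of tested genes were higher without overlap and 13.2% lower. Since the members were named from such differences, nothing is read from these shares.

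Without Hif1a+/- diabetic 72, the animal of the other sex, the log2 fold changes of Ccl6 and Ccl9 were 2.32 and 2.1, with adjusted p = 0.0575 and 0.0711 in edgeR, and those of Ccl12, Ccl8, Ccl7 and Ccl2 were 2.43, 2.24, 1.67 and 1.08. Without Hif1a+/- diabetic 77, those of Ccl12, Ccl7, Ccl2 and Ccl8 were 1.48, 0.80, 0.71 and 0.52, DESeq2 called Ccl6 and Ccl9 but no other member, and Ccl6 and Ccl9 themselves were at 2.14 and 1.93. With each of the 12 samples left out in turn, DESeq2 called Ccl6 in 12 fits and Ccl9 in 11, all but the fit without Hif1a+/- non-diabetic 32. The Ccl2 call was lost in 7 of the 12, without Wt non-diabetic 25 or 42, any Hif1a+/- non-diabetic sample, or Hif1a+/- diabetic 66 or 77. The Ccl7 call was lost in 5, without Wt non-diabetic 42, any Hif1a+/- non-diabetic sample, or Hif1a+/- diabetic 77. For fits with a sample left out, here and below, the number of all genes called is not given. A call gained, kept or lost in them is thus not read as particular to a member.

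Hif1a+/- diabetic hearts were next set against Wt non-diabetic hearts, which differ from them in both genotype and pregnancy. Ccl6 was 3.25-fold higher, a log2 fold change of 1.70 (SE 0.35), and Ccl9 3.12-fold higher, at 1.64 (SE 0.37). Ccl12 was at 1.74 (SE 0.70), Ccl8 at 1.27 (SE 0.72), Ccl7 at 0.85 (SE 0.43) and Ccl2 at 0.43 (SE 0.26), while Ccl11 and Ccl24 were at -0.05 and -0.04. In edgeR 0 of the 8 were called (0.0% of all tested, 1302 with an unadjusted p under 0.05), with adjusted p = 0.315 for Ccl6 and 0.318 for Ccl9. DESeq2 called Ccl6 (adjusted p = 0.036) and Ccl9 (0.0864) among 0.453% of 15002 genes (0.3% as higher). These were also the 2 members whose samples lay above those of Wt non-diabetic without overlap, as did 7.47% of tested genes, with 7.11% below. Of 12 DESeq2 fits with a sample left out, the Ccl6 call was lost in 3 (without Wt non-diabetic 42 or Hif1a+/- diabetic 66 or 77) and the Ccl9 call in 5 (without Wt non-diabetic 42 or 89, Hif1a+/- non-diabetic 14 or 44, or Hif1a+/- diabetic 77). Both held without Hif1a+/- diabetic 72, where the log2 fold changes were 1.94 and 1.89 in edgeR. Without animal 77 those of Ccl12, Ccl7, Ccl2 and Ccl8 were 0.92, 0.21, 0.20 and -0.01, and that of Ccl2 was 0.27 without Wt non-diabetic 89.

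The comparison of Hif1a+/- diabetic with Wt diabetic hearts asks how the genotype acts in exposed offspring. Ccl2 was 1.95-fold higher, a log2 fold change of 0.97 (SE 0.27), and its samples did not overlap, the only member for which this held (4.32% of tested genes were higher without overlap and 3.62% lower). Ccl7 was at 1.25 (SE 0.44), Ccl6 at 0.90 (SE 0.34), Ccl9 at 0.76 (SE 0.35), Ccl12 at 1.27 (SE 0.67) and Ccl8 at 1.49 (SE 0.73). Adjusted p values in edgeR were 0.862 or above for all 8 (0.0% of genes called, 787 with an unadjusted p under 0.05), and DESeq2 called 0.155% of 15525 genes (0.11% as higher) but no member. Without Wt diabetic 80, DESeq2 called Ccl12 and Ccl7, where the number of all genes called is likewise not given. The log2 fold change of Ccl12 without that sample was 2.48 in edgeR. Without Hif1a+/- diabetic 77 the values of Ccl7, Ccl12 and Ccl8 were 0.61, 0.44 and 0.21, and without Hif1a+/- diabetic 66 those of Ccl6 and Ccl9 were 0.52 and 0.35. Without Wt diabetic 7, Ccl9, Ccl8 and Ccl12 were at 1.21, 0.95 and 0.74. In the fit without Hif1a+/- diabetic 72, Ccl8, Ccl7, Ccl12, Ccl6, Ccl2 and Ccl9 were at 1.92, 1.47, 1.39, 1.14, 1.1 and 1.0.

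In Wt hearts, diabetic against non-diabetic pregnancy gave a log2 fold change of 0.80 (SE 0.35) for Ccl6 and 0.88 (SE 0.37) for Ccl9. Without Wt diabetic 7, the animal high in both, these were 0.46 and 0.44. Ccl2 was at -0.54 (SE 0.27), Ccl7 at -0.40 (SE 0.46) and Ccl8 at -0.22 (SE 0.79). All adjusted p values in edgeR and DESeq2 were 1 (0.0% and 0.0148% of genes called, the latter with 0.00739% higher, and 409 and 391 genes with an unadjusted p under 0.05). The samples overlapped for every member, against 2.14% of tested genes higher and 3.4% lower without overlap.

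Hif1a+/- against Wt in non-diabetic pregnancy gave log2 fold changes below 0 for all 8 members, from -0.58 (SE 0.47) for Ccl7 and -0.51 (SE 0.28) for Ccl2 to -0.13 (SE 0.33) for Ccl11. Ccl2 and Ccl7 were lower without overlap, as were 2.26% of tested genes, with 2.55% higher. All 8 adjusted p values were 1 in both tools (0.0% and 0.00369% of genes called, 141 and 129 with an unadjusted p under 0.05). Without Wt non-diabetic 25 the values for Ccl6 and Ccl9 were 0.01 and 0.08. These comparisons share groups, Wt non-diabetic in 3 of them and Hif1a+/- diabetic in 3, so their values for a member are not independent of each other.

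The interaction, the effect of maternal diabetes in Hif1a+/- minus that in Wt on the log2 scale, was 1.48 (SE 0.38) for Ccl2, 1.83 (SE 0.64) for Ccl7 and 1.27 (SE 0.50) for Ccl6. Ccl8 and Ccl12 had 2.03 (SE 1.09) and 1.83 (SE 1.05), Ccl9 stood at 0.97 (SE 0.52), and Ccl11 and Ccl24 at -0.10 (SE 0.46) and 0.19 (SE 0.43). The adjusted p in edgeR was 0.998 for each of the 8 (0.0% of genes called, 371 with an unadjusted p under 0.05), and DESeq2 called 0 genes (380 with an unadjusted p under 0.05). In the fit without Hif1a+/- diabetic 77, Ccl7, Ccl12 and Ccl8 were at 1.20, 1.00 and 0.74. Ccl9 was at 0.56 without Hif1a+/- diabetic 66, and Ccl12 at 3.03 without Wt diabetic 80. Without Hif1a+/- diabetic 72, Ccl8, Ccl7, Ccl12, Ccl2, Ccl6 and Ccl9 were at 2.46, 2.06, 1.96, 1.62, 1.52 and 1.22.

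**Figure D2:**
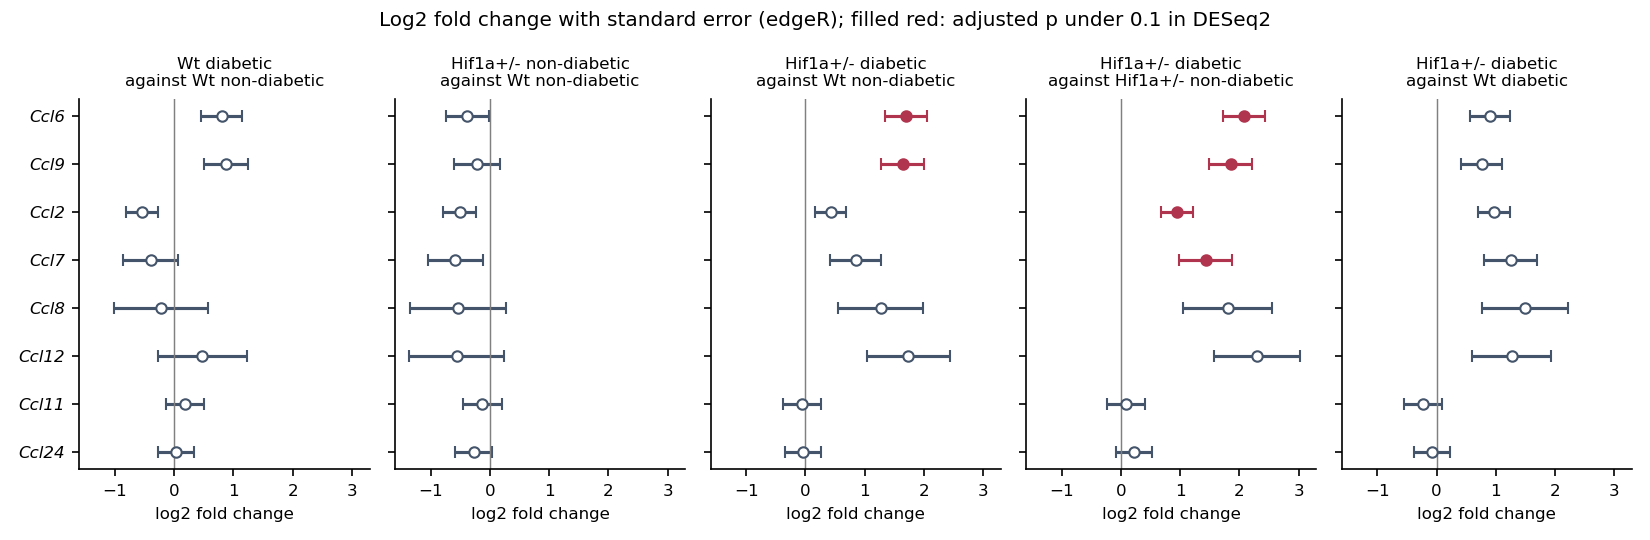
Log2 fold change (horizontal axes) of each gene in 5 comparisons between groups, with bars for the standard error of edgeR; filled red points had an adjusted p under 0.1 in DESeq2, and no point had one in edgeR. Ccl6 and Ccl9 lie at 2.08 and 1.85 in Hif1a+/- diabetic against Hif1a+/- non-diabetic hearts, and Ccl11 and Ccl24 lie between -0.27 and 0.22 in every panel.

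Whether members varied together from heart to heart was examined within groups, on the deviation of log2(CPM + 1) from the mean of the sample's own group, which the choice of members did not use. Ccl6 and Ccl9 had r = 0.92 and rho = 0.90 over the 12 samples, with a 2-sided exact permutation p = 0.00154 for each over all orders of samples within groups and adjusted p = 0.0432 over the 28 pairs. Leaving out the 2 samples farthest from the median gave r = 0.88. Ccl7 and Ccl8 had r = 0.94 (exact permutation p = 0.01, adjusted p = 0.13), Ccl11 and Ccl12 r = 0.87 (adjusted p = 0.13 in the same permutation test) and Ccl7 and Ccl12 r = 0.86 (adjusted p = 0.151 likewise). Only the pair Ccl6 and Ccl9 passed 0.1. With 1 sample left out at a time, which allows fewer orders, 0 pairs passed without any one of the 9 samples outside Hif1a+/- non-diabetic, 1 without animal 14 or 44 and 2 without animal 32.

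Ccl6 and Ccl9 had r from -0.53 to -0.03 with each of the other 6 members within groups, where none passed. Without the 2 samples farthest from the median, Ccl9 had r above 0 with Ccl7 (0.41), Ccl12 (0.29), Ccl8 (0.21) and Ccl11 (0.16), so its sign with these rests on those samples, while Ccl6 stayed below 0 with all 6, from -0.49 to -0.02. The members of the other block on chromosome 11 had r from 0.24 to 0.94 among themselves, and from 0.15 to 0.84 without the 2 farthest. Ccl24, on chromosome 5, was nearest to Ccl11, with r = 0.68 (0.36 without the 2 farthest), and its r with Ccl7 went from 0.20 to -0.11. Animal 7 shows the split: among Wt diabetic hearts it had the highest Ccl6 and Ccl9 and the lowest Ccl2, Ccl7, Ccl8, Ccl11, Ccl12 and Ccl24.

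**Figure D3:**
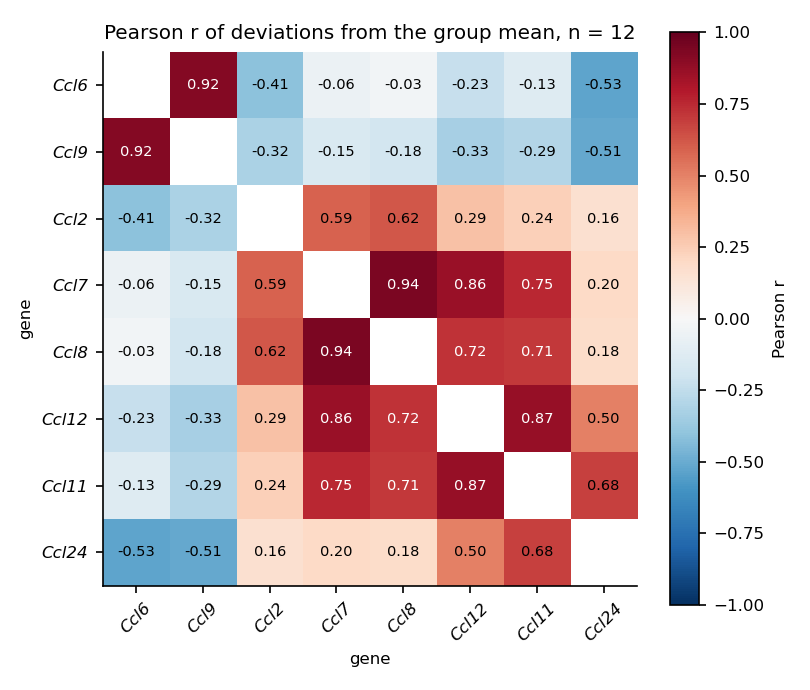
Pearson r (colour and printed value) between pairs of genes for the deviation of log2(CPM + 1) from the mean of the sample's group, over 12 samples. Ccl6 and Ccl9 stand apart at 0.92 with each other and below 0 with the other 6 genes, which are above 0 among themselves. Without the 2 farthest samples, Ccl9 with Ccl7, Ccl8, Ccl11 and Ccl12 and Ccl7 with Ccl24 change sign.

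The 3 tested genes most like each member by Pearson r over the 12 samples, out of 12925 with a mean of at least 1 CPM, are given as a description; r over samples of 4 groups also holds the group differences. For Ccl6 they were Ccl9 (r = 0.977), Fbln2, which encodes an extracellular matrix protein (0.964), and Msr1, a scavenger receptor of macrophages (0.952). For Ccl9 they were Ccl6, Msr1 (0.976) and Ms4a6d (0.946). For Ccl7 they were Plek, a substrate of protein kinase C in blood cells (0.972), Ccl8 (0.932) and the interferon-induced Ifi27l2a (0.929), and for Ccl8 they were Ccl7, Ifi27l2a (0.88) and Slc39a1 (0.876).

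For Ccl12 they were Fcer1g, the signalling chain of Fc receptors (0.962), Tmem176a (0.949) and Gatm (0.927). For Ccl2 they were Ildr2 (0.895), Ccl7 (0.801) and Ap2a2 (0.793). Ccl11 was nearest to Il15 (0.911), the interferon-induced Ifi47 (0.887) and Rnf181 (0.887), and Ccl24 to Tst (0.883), Trnau1ap (0.864) and Polr3gl (0.862). Without Hif1a+/- diabetic 72 the r of these pairs lay between 0.797 and 0.977.

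Macrophages are a known source of several of these chemokines, and the summed RNA of their markers was also highest in Hif1a+/- diabetic hearts. The study's count of macrophages stained for F4/80 in the LV was instead raised in Wt diabetic hearts only. Adgre1, the F4/80 gene named here for that count, had 10.4, 10.25 and 13.52 CPM in Hif1a+/- diabetic 66, 72 and 77. In Wt diabetic 50, 7 and 80 it had 8.54, 7.76 and 10.63 CPM. Adgre1 had 4.73 to 9.85 CPM in Wt non-diabetic and 5.46 to 8.55 CPM in Hif1a+/- non-diabetic hearts. With diabetic pregnancy its log2 fold change was 0.26 in Wt and 0.71 in Hif1a+/- hearts. Between Hif1a+/- diabetic and Wt diabetic hearts, whose samples overlapped, it was 0.35 (adjusted p = 0.862 in edgeR and 0.988 in DESeq2). Neither tool called Adgre1 in any of these comparisons. How marker RNA and that cell count relate was not tested. The 16 macrophage markers summed to 618 to 911 CPM in Hif1a+/- diabetic, 314 to 459 in Hif1a+/- non-diabetic, 425 to 703 in Wt diabetic and 409 to 561 CPM in Wt non-diabetic hearts. The lowest of the Hif1a+/- diabetic values was animal 72, and animals 66 and 77 alone had 775 and 911 CPM. In Hif1a+/- hearts 15 of the 16 had a log2 fold change above 0 with diabetic pregnancy, with a median of 0.91, and 0 passed in edgeR and 8 in DESeq2. Lyz2, the lysozyme of myeloid cells, and C1qa and C1qc, subunits of complement C1q, were at 0.97, 1.01 and 1.02 there (adjusted p = 0.00234, 0.00724 and 0.00234 in DESeq2, and 0.178, 0.214 and 0.178 in edgeR).

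Set against the macrophage markers of the same sample, Ccl6 was at 7.77, 4.29 and 4.1 CPM per 100 CPM of summed markers in Hif1a+/- diabetic hearts (animals 66, 72 and 77). It was at 2.38, 2.84 and 2.22 in Hif1a+/- non-diabetic hearts, so the groups still did not overlap on this scale. The same ratio was 2.13 to 4.2 against 1.27 to 1.64 for Ccl9, again without overlap. For Ccl2 it was 0.54 to 0.66 against 0.48 to 0.75, with full overlap. In Wt hearts the ratio for Ccl6 reached 6.17 in diabetic 7 and 4.59 in non-diabetic 25. Over the 12 samples, which share the group differences, Ccl6 and Ccl9 had r = 0.79 and 0.78 with the summed markers and Ccl2 0.44, and within groups 0.30, 0.32 and -0.14. The part of macrophage number in the levels of these chemokines was not tested.

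**Figure D4:**
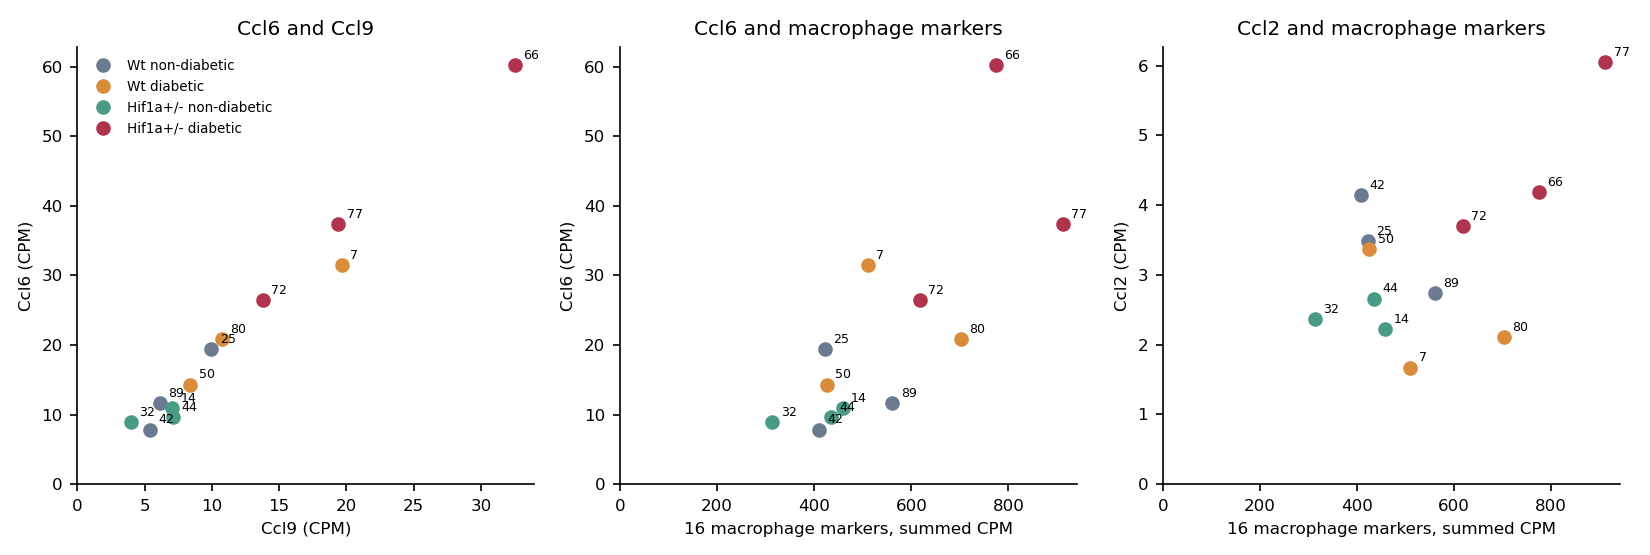
Each point is 1 sample, labelled with its animal number and coloured by group. Left, Ccl6 (CPM) against Ccl9 (CPM); middle and right, Ccl6 and Ccl2 (CPM) against the summed CPM of 16 macrophage markers. Ccl6 follows Ccl9 in a narrow band, with a ratio of 1.35 to 2.23. Animals 66, 7 and 25 have the most Ccl6 for their marker level, at 7.77, 6.17 and 4.59 CPM per 100 CPM of summed markers. For Ccl2 these animals have 0.54, 0.33 and 0.83 on that scale, within the range of 0.3 to 1.01 over all 12 samples.

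Other leukocyte markers were low. Monocyte markers, 7 genes, summed to 2.54 to 6.63 CPM in Hif1a+/- diabetic and 1.56 to 3.0 CPM in Hif1a+/- non-diabetic hearts, with animal 77 highest. Of its 6.63 CPM, 5.04 CPM were Ccr2, which is also given among the receptors below. Of 3 tested monocyte markers, 0 were called by either tool in Hif1a+/- diabetic against Hif1a+/- non-diabetic hearts. Neutrophil markers summed to 10.6 to 11.1 CPM in Hif1a+/- diabetic, 2.7 to 4.75 in Hif1a+/- non-diabetic and 4.53 to 6.37 CPM in Wt diabetic hearts, while Wt non-diabetic hearts had 3.68, 6.33 and, in animal 25, 23.4 CPM. That animal also had the highest Ccl6, Ccl9, Ccl7, Ccl8 and Ccl12 of its group. Of 4 tested neutrophil markers all were above 0 in Hif1a+/- diabetic against Hif1a+/- non-diabetic hearts, and Mmp9, a matrix protease, was called in DESeq2 (log2 fold change 1.35, adjusted p = 0.0801 in DESeq2 and 0.295 in edgeR). Without animal 72, Hif1a+/- diabetic hearts had 10.6 and 10.7 CPM. Of the 4 eosinophil markers Epx, named as the one with no read, was at 0 in all samples and the sum was at most 0.133 CPM. Mast cell markers summed to 4.23 to 9.02 CPM, most of it Kit, and B and T lymphocyte markers to 1.13 to 3.78 CPM, with overlap between Hif1a+/- diabetic and non-diabetic hearts for both.

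Fibroblasts of the adventitia, the outer coat of vessels, were marked by 5 genes that summed to 276 to 498 CPM in Hif1a+/- diabetic and 137 to 189 CPM in the samples of the other groups, with 289 and 498 CPM in Hif1a+/- diabetic 66 and 77. Of these, 4 (Pi16, Cd248, Mfap5 and Clec3b) were called in DESeq2 in Hif1a+/- diabetic against Hif1a+/- non-diabetic hearts, and 0 in edgeR. Cd248, and Dpt below, were named after their values were seen. The 7 general fibroblast markers, Dcn among them, summed to 1310 to 1690 CPM against 1270 to 1330 CPM in these groups, with Dpt called in DESeq2. Endothelial markers (1370 to 1810 CPM over the 12 samples), atrial cardiomyocyte markers (25.2 to 70.8 CPM) and mesothelial and epicardial markers (5.08 to 17.3 CPM) overlapped between Hif1a+/- diabetic and Hif1a+/- non-diabetic hearts. The part of these cell types in the chemokine levels was not tested.

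The receptors were measured beside their ligands. Ccr1, the receptor of Ccl6 and Ccl9, was at 5.27, 2.33 and 5.21 CPM in Hif1a+/- diabetic hearts and at 2.18, 1.86 and 1.06 CPM in Hif1a+/- non-diabetic hearts. These did not overlap, though 2.33 CPM in animal 72 and 2.18 CPM are close, and the log2 fold change of 1.33 had adjusted p = 0.324 in edgeR and 0.156 in DESeq2. Ccr2, the monocyte receptor of Ccl2, Ccl7 and Ccl12, was at 1.1, 1.8 and 5.04 CPM against 1.64, 1.8 and 0.8 CPM, with animal 77 highest (log2 fold change 0.87, adjusted p = 0.467 in edgeR). In Wt hearts Ccr2 was at 0.68 to 0.86 CPM in non-diabetic and 1.11 to 1.8 CPM in diabetic pregnancy. Hif1a+/- diabetic against Wt non-diabetic hearts gave a log2 fold change of 1.70 for Ccr2 (adjusted p = 0.459 in edgeR and 0.112 in DESeq2).

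Ccr3, the receptor of the eotaxins, was at 0.09 CPM or less in every sample, and Ccr8, the receptor of mouse Ccl8, at 0.03 CPM or less. Both were below the filter. Of the 11 CC receptors listed, 4 were tested and 0 were called by either tool in any of the comparisons. Ccrl2, which binds chemerin without signalling, was the highest of them at a mean of 10.6 CPM, with a log2 fold change of -0.02 in Hif1a+/- hearts.

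Atypical receptors bind chemokines without signalling for migration. Ackr2, which takes up and degrades inflammatory CC chemokines, was at 8.01, 3.43 and 12.7 CPM in Hif1a+/- diabetic and at 3.58, 3.83 and 2.41 CPM in Hif1a+/- non-diabetic hearts, with overlap through animal 72 and none without it. Its log2 fold change was 1.30, with adjusted p = 0.298 in edgeR and 0.0725 in DESeq2. It was the only 1 of 3 tested atypical receptors that passed in DESeq2. Ackr3, the receptor that takes up Cxcl12, was at 111 to 140 CPM against 103 to 145 CPM. Ackr1, found on venules and red cells, was at 1.59 CPM in animal 77 and at 0.45 CPM or less in all others, below the filter.

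**Figure D5:**
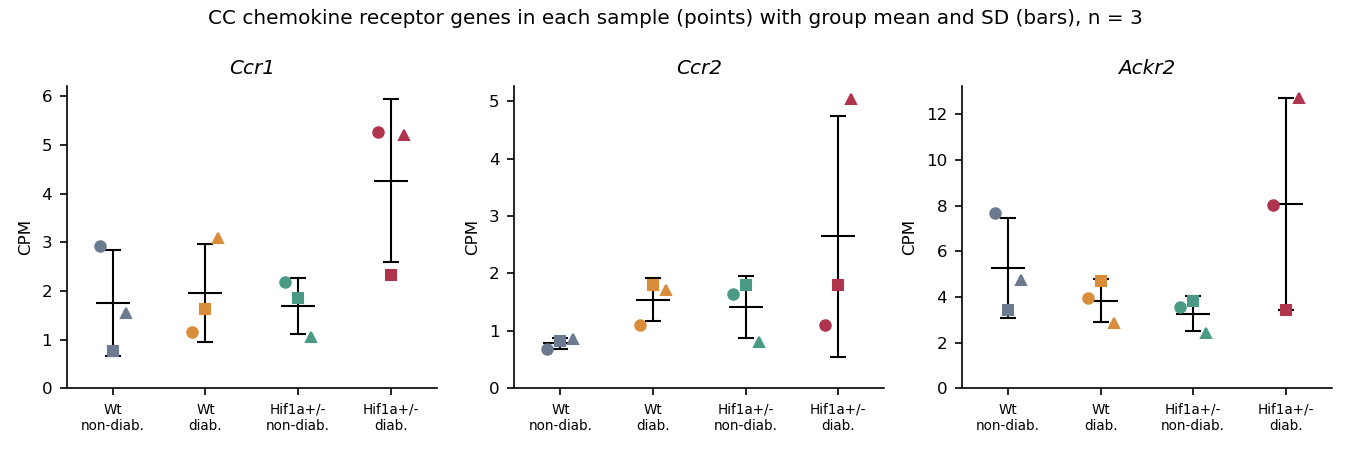
CPM of Ccr1, Ccr2 and Ackr2 (vertical axes, linear, with a different range for each gene) in the 4 groups, where points are samples, in the same shapes as in the plot of the 8 chemokines, and bars the mean and SD of 3. Animal 77 (triangle of Hif1a+/- diabetic) is highest for Ccr2 and Ackr2, and animals 66 and 77 are highest for Ccr1.

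The rest of the ligand family was counted from whole lists. Of 15 other CC ligands in the files, 5 were tested and 0 were called by either tool in any comparison, and the median log2 fold change in Hif1a+/- diabetic against Hif1a+/- non-diabetic hearts was 0.03. The most abundant were Ccl21a, which guides cells to lymph vessels (5.24 to 8.49 against 4.79 to 6.59 CPM), Ccl27a (3.61 to 3.96 against 3.49 to 4.01 CPM) and Ccl25 (1.28 to 2.51 against 1.66 to 1.75 CPM). Of 17 CXC, XC and CX3C ligands, 8 were tested, 6 were above 0 and 2 below in that comparison with a median of 0.26, and 2 passed in DESeq2 and 0 in edgeR. Cxcl12, a homeostatic chemokine and the most abundant, was at 242 to 376 against 308 to 429 CPM (log2 fold change -0.35, adjusted p = 0.519 in edgeR). Cx3cl1 was at 16.3 to 22.8 against 15.9 to 17.7 CPM and Cxcl14 at 12.0 to 18.6 against 12.3 to 15.4 CPM.

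Those 2 were Cxcl1, a neutrophil attractant, and Pf4, named here after their values were seen. Cxcl1 was at 1.26, 1.41 and, in animal 77, 6.01 CPM against 0.51 to 0.86 CPM (log2 fold change 2.01, adjusted p = 0.0244 in DESeq2 and 0.266 in edgeR). Pf4, a platelet and macrophage chemokine, was at 13.8 to 18.1 against 7.55 to 10.7 CPM (0.74, adjusted p = 0.00503 and 0.178). Of 15 genes of NF-kB and cytokine response, 14 were tested, 10 were above 0 and 4 below with a median of 0.29, and 1 passed in DESeq2 and 0 in edgeR. That 1 was Icam1, an endothelial adhesion molecule also named after its values were seen, at 20.99 to 32.95 against 14.84 to 15.94 CPM (0.71, adjusted p = 0.0256 in DESeq2 and 0.22 in edgeR). Nfkb1, Ier3 and Nfkbia, the most abundant of that list, had log2 fold changes of -0.05, -0.15 and 0.15, with adjusted p = 0.833, 0.848 and 0.765 in edgeR.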

How the data were processed

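RNA from the LV of 12 offspring was isolated with TRIzol and sequenced as 3′-seq libraries by the authors. They trimmed the reads, took out those of rRNA and mitochondria, mapped what was left to GRCm38 with STAR (2.5.2b in the submitters' processing notes) and a GENCODE annotation, and tallied it over genes by htseq-count in union mode. The deposited counts are whole reads per gene and sample, without normalization. The deposited tables of normalized counts were not used. Reads placed at more than 1 site, 12.4% to 17.0% of a sample, and other tally lines were left out. Groups came from the sample titles, and the number in a title is the animal. The 46983 genes were matched to GENCODE M21 of GRCm38 by identifier, and 46488 had a symbol.

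Groups were compared with the quasi-likelihood test of edgeR (4.0.16, R 4.3.3) under TMM normalization, the default filter by group and the 12 samples in 1 fit, with Benjamini-Hochberg adjustment over 14706 genes and the threshold of 0.1 that the study used. SE is the log2 fold change over the root of the F statistic. Depth was 16132442 to 39812939 counts per sample, and the biological coefficient of variation was 13.7%. Labels do not say which animals shared a litter, so p values measure the spread between these samples. DESeq2 (1.42.0), limma-voom with sample weights (limma 3.58.1), DESeq2 size factors, other filters, a threshold of 0.05, a robust fit, a fit of only the groups compared and leaving out each sample were alternatives. Leaving out samples in DESeq2 and in the genes most like each member was added after seeing the data. Levels are CPM over TMM-scaled totals. Pairs of members were tested on log2(CPM + 1), or with a pseudocount of 0.1, by permuting samples within groups. An exact test of 3 against 3 samples cannot go below p = 0.1. Scripts were tested on simulated data.

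Members, gene lists and marker lists were chosen with earlier results of these data known. Named were all members and Hif1a, from each other list the 3 with the highest mean CPM and any called by edgeR, the members' receptors, and the 3 genes most like each member. A gene of the receptor list is not reported here. Promoters came from RefSeq (GRCm38.p6), aligned with Biopython 1.88.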

Additional observations from a re-analysis of the deposited data

Results flagged for a closer look

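For Ccl2 the log2 fold change with maternal diabetes had opposite signs in the 2 genotypes, -0.54 (SE 0.27) in Wt and 0.94 (SE 0.27) in Hif1a+/- hearts. All 3 Hif1a+/- diabetic samples (3.7 to 6.05 CPM) lay above the mean of Hif1a+/- non-diabetic hearts (2.42 CPM), and all 3 Wt diabetic samples (1.67 to 3.37 CPM) lay below the mean of Wt non-diabetic hearts (3.45 CPM), though the samples of the Wt groups overlapped. The difference of these 2 log2 fold changes was 1.48 (SE 0.38), with an unadjusted p = 0.0019 and an adjusted p = 0.998 in edgeR's quasi-likelihood test. It thus did not pass over all genes. With each sample left out in turn it was 1.25 to 1.83. Against Wt non-diabetic hearts, Ccl2 was at -0.51 (SE 0.28) in Hif1a+/- non-diabetic hearts, without overlap. In Hif1a+/- diabetic hearts it was at 0.43 (SE 0.26) against Wt non-diabetic, with overlap. Opposite signs were not particular to Ccl2. In Wt hearts Ccl7 was at -0.40 (SE 0.46) and Ccl8 at -0.22 (SE 0.79), and in Hif1a+/- hearts at 1.43 (SE 0.45) and 1.80 (SE 0.75). Their interactions were larger and less precise, 1.83 (SE 0.64) and 2.03 (SE 1.09). Groups of 3 samples are too small for the test of single outlying samples.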

How the results depend on the processing

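The number of members called depended on the test. In Hif1a+/- diabetic against Hif1a+/- non-diabetic hearts edgeR called 0, DESeq2 4, limma-voom 5, the fit without a filter 6 and the fit of only the groups compared 2. With each sample left out in turn it was 0 to 5 in edgeR and DESeq2 together: edgeR called 1 without Wt diabetic 7 or 80 (Ccl6) and 2 without Hif1a+/- diabetic 72, and DESeq2 1 to 5, with 1 (Ccl6) without Hif1a+/- non-diabetic 32. Against Wt non-diabetic, Hif1a+/- diabetic hearts had 0 in edgeR, 2 in DESeq2, 4 without a filter and 0 to 2 with a sample left out. Against Wt diabetic they had 0, 6 without a filter and 0 to 2 with a sample left out. Without a filter, 2 were called in Wt diabetic against Wt non-diabetic hearts and 4 in the interaction. The fit without a filter tested 27093 genes and called 592 of all genes in the first comparison, 445 against Wt non-diabetic, 220 against Wt diabetic, 129 in Wt hearts and 78 in the interaction. In the first comparison limma-voom called 937, the fit of only the groups compared 101 and DESeq2 201, against 0 in edgeR as reported; the cause was not tested. Pairs of members that passed numbered 0 to 2 with a sample left out and 1 at the other pseudocount.

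Of 48 log2 fold changes, 34 kept their sign under every alternative. In Hif1a+/- diabetic against Hif1a+/- non-diabetic hearts only Ccl11 changed sign, from -0.17 to 0.24 with a sample left out. With a sample left out, Hif1a+/- against Wt in non-diabetic pregnancy ran from -0.66 to 0.01 for Ccl6 and from -0.40 to 0.08 for Ccl9. In Wt hearts, diabetic against non-diabetic pregnancy ran from -0.91 to 0.33 for Ccl8, -0.30 to 0.50 for Ccl11, -0.73 to 1.02 for Ccl12 and -0.22 to 0.31 for Ccl24. Hif1a+/- diabetic against Wt non-diabetic ran from -0.05 to 1.71 for Ccl8, -0.30 to 0.08 for Ccl11 and -0.27 to 0.14 for Ccl24. Against Wt diabetic it ran from -0.55 to 0.25 for Ccl11 and -0.34 to 0.17 for Ccl24, and the interaction from -0.41 to 0.38 for Ccl11 and -0.08 to 0.44 for Ccl24. In limma-voom, Ccl12 was at -0.05 in Wt diabetic against non-diabetic, Ccl11 at 0.0 and Ccl24 at 0.02 in Hif1a+/- diabetic against Wt non-diabetic, and Ccl11 at 0.12 in the interaction.

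Each animal is in 1 group and the labels do not say which animals shared a litter, so no paired analysis was possible. The fold changes of Ccl8 and Ccl12 are the least precise. Their counts fell to 7 and 8 in single samples. Their Hif1a+/- diabetic samples also spread widely, from 0.88 to 6.54 CPM for Ccl8 and from 1.26 to 7.11 CPM for Ccl12. Leaving out Hif1a+/- diabetic 77 moved Ccl8 the most, from 1.80 to 0.52 in Hif1a+/- hearts. Levels of RNA say nothing of secreted protein.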
